A study of Mus musculus with 5 samples.

Results

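Pcgf6 binding was examined at Lin28a, Lin28b, Trim71, Dis3l2 and Hmga2, 5 of the 22367 protein-coding genes annotated on the mouse mm9 genome (NCBIM37). The genes were chosen by name, as the Lin28 pair and partners in the let-7 pathway, and every annotated start of each was taken. Their 13 transcripts begin at 9 positions. Starts within 500 bp of each other were joined, which left 7 start groups of 42397 in all. Earlier ratios of ChIP to input from these same libraries were known when the genes were chosen, so the levels below are a description and carry no test.

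The data came from ChIP-seq, in which DNA fragments bound by a protein are recovered with an antibody and sequenced. The cells were CCE cells, a line of mouse embryonic stem cells (ESCs), kept under 15 passages in medium with serum and LIF and cross-linked with disuccinimidyl glutarate plus paraformaldehyde. There were 2 replicates with a Pcgf6 antibody from Santa Cruz, 2 with a Pcgf6 antibody from Abcam, and 1 input library of sonicated DNA without antibody. The labels give no knockdown or overexpression for any of them. The labels name no control antibody and no cells without Pcgf6, and the identity of the cells cannot be checked on marker genes with binding data.

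The ChIP files held 2290044 and 2299863 fragments with Santa Cruz and 2761790 and 2850622 with Abcam, against 22950024 in the input. The replicates of an antibody were mostly the same fragments. At a shift of 1 or 15 bp, 87.9% of the fragments of Santa Cruz replicate 1 and 88.1% of those of Abcam replicate 1 were found again in replicate 2. Each antibody was therefore counted as 1 sample, values are given for both files, and no SD was computed. Between the antibodies the fragments were different ones, with 1.10% of Santa Cruz replicate 1 also in Abcam replicate 1.

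Pcgf6 is a RING finger protein of a noncanonical PRC1 complex that also holds L3mbtl2 and the E-box binding partners Max and Mga. Lin28a and Lin28b are RNA-binding proteins that hold back the maturation of the let-7 microRNAs. Lin28a binds the let-7 precursor and brings in the terminal uridylyltransferases Zcchc11 and Zcchc6, and Dis3l2 is the exonuclease that degrades the uridylated precursor. Trim71, an RNA-binding protein of the TRIM-NHL family, and Hmga2, an architectural chromatin protein with AT-hooks, are known let-7 targets. Lin28a is a marker of undifferentiated ESCs.

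The starts of Lin28b differ from those of the other genes in their arrangement. Lin28b (ENSMUSG00000063804.6) lies on the minus strand of chromosome 10. Its main start at 45190007 is shared by the transcripts Lin28b-201 and Lin28b-204, which hold 813 and 741 coding bases. The nearer upstream start, at 45205583, lies 15576 bp upstream of the main start and gives rise to Lin28b-202. Its first exon runs from 45205234 to 45205583 and already holds the start of the coding sequence, 288 coding bases are annotated, and the transcript ends at 45176389, before the distal exons of the main transcripts. The farther upstream start, at 45206201, lies 16194 bp upstream of the main start and gives rise to Lin28b-203. Its first exon, from 45206033 to 45206201, is noncoding, coding begins at 45188920 downstream of the main start, and 414 coding bases are annotated. The RefSeq start of Lin28b coincides with the main start alone.

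The sequences around the 3 Lin28b starts are shown because the ChIP values differed between them. Each runs from 250 bp upstream to the first bases of the transcript, 275 bp in all, read 5′ to 3′ on the minus strand of mm9. Capitals mark matches on either strand to CACGTG, the E-box bound by Max and Mga, to GCGGGA, a core of E2F sites, and to AGGTGTGA, a T-box core, none of which overlap. The main start is chr10:45189983-45190257, the nearer upstream start chr10:45205559-45205833 and the farther upstream start chr10:45206177-45206451.
Lin28b main start: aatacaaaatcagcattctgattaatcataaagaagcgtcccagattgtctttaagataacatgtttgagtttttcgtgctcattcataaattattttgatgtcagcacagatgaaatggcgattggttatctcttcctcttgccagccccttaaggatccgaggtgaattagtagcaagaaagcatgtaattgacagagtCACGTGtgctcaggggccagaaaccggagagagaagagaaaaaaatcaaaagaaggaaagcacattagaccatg
Lin28b nearer upstream start: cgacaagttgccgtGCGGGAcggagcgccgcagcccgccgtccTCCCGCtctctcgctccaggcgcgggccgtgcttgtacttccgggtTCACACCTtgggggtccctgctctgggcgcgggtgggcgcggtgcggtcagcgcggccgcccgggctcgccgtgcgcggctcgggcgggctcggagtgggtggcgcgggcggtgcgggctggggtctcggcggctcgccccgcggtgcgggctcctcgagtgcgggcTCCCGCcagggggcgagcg
Lin28b farther upstream start: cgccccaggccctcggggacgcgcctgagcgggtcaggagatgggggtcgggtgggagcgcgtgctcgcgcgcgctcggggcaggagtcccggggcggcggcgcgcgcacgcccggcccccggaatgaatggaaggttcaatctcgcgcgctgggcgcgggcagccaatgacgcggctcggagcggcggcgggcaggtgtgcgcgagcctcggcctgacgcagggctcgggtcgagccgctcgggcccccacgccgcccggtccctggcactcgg

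The upstream starts lay in sequence rich in GC and CpG, and the main start lay in sequence low in GC. GC content was 79.3% at the nearer and 78.5% at the farther upstream start, above 98.9% and 98.6% of the 42397 start groups. The ratio of observed to expected CpG was 1.05 and 1.07, above 97.2% and 97.7% of start groups, with 45 CpG in either sequence. At the main start GC content was 39.3%, above 12.1% of start groups. It held 6 CpG, and its observed to expected ratio of 0.573 was above 70.0% of them. The other 4 genes lay between in GC content, from 57.1% at Hmga2 to 64.4% at Dis3l2. Their observed to expected CpG ran from 0.310 at Lin28a to 0.962 at Dis3l2, and Lin28a and Hmga2 (0.544) were below the main Lin28b start.

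Within these 275 bp, matches to the 3 motifs also differed between the Lin28b starts. The main start held 1 E-box, beginning 49 bp upstream of the start. The nearer upstream start held 3 matches to GCGGGA, beginning at -236, -207 and 6 relative to the start, the last pair on the opposite strand, and 1 match to AGGTGTGA at -161 on the opposite strand. The farther upstream start held none of the 3 motifs in these bases. Over the same 275 bp of all start groups, 5.98% held CACGTG, 15.9% held GCGGGA and 1.14% held AGGTGTGA. Among the other genes, Dis3l2 held 2 matches to GCGGGA and Hmga2 held 1. Over 2 kb on each side the contrast in the E-box was gone. There the upstream starts shared 1 CACGTG, at -382 from the nearer and 236 from the farther start, and both windows held the same 5 matches to GCGGGA and 1 to AGGTGTGA. The main start kept its 1 CACGTG and held 0 of the other motifs. Windows of this length held CACGTG in 42.6% of all start groups, GCGGGA in 53.9% and AGGTGTGA in 16.96%. These are matches of letters and were not examined for binding of any factor.

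Pcgf6 ChIP depth stood over the input with both antibodies at the upstream starts of Lin28b. At the other 5 start groups no antibody reached 2-fold, and the highest was Abcam at the main Lin28b start, which lay over the input. For each file, the depth within 2 kb of a start was divided by the depth sum of the file and then by the same quantity in the input, and this is called the depth ratio. Both upstream start groups of Lin28b were at 2-fold or more with both antibodies, 2 of the 7 start groups, while 0.888% of the 37936 start groups with at least 20 input fragments were past that line (3.08% with Santa Cruz and 2.97% with Abcam taken singly). Of the 18759 alternative start groups 0.512% were past it with both. The line belongs to the contrast from which the genes were chosen, so nothing is read from this count.

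**Figure D1:**
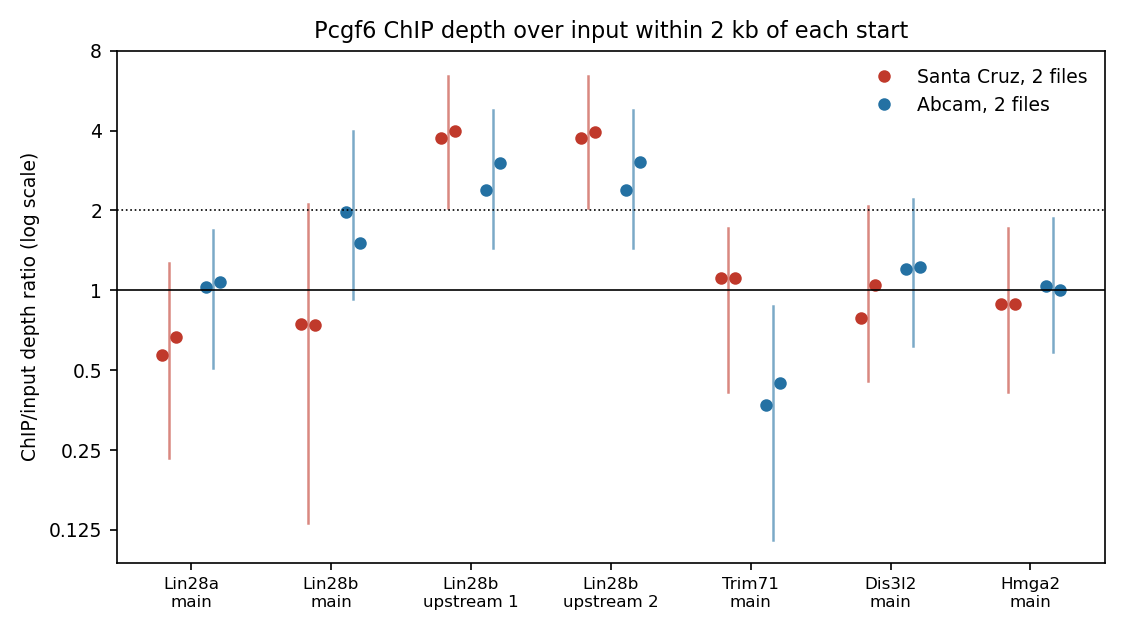
ChIP over input depth ratio (log scale) within 2 kb of the 7 start groups, with 1 point per file and vertical lines for the 95% exact interval of the joined fragments (counting error only). Lin28b upstream 1 is the nearer and upstream 2 the farther upstream start. The 8 points of the upstream Lin28b starts lie between 2.39 and 3.97, above the dotted 2-fold line, and the points of the other 5 groups lie below it.

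At the nearer upstream start of Lin28b the depth ratio was 3.77 and 3.97 in the Santa Cruz files and 2.39 and 3.03 in the Abcam files. After joining the 2 files of an antibody, 19 Santa Cruz and 17 Abcam fragments lay in the window against 45 in the input. The fragment ratio was 3.70 with Santa Cruz (exact 95% interval from 2.04 to 6.45) and 2.68 with Abcam (from 1.44 to 4.78). Both antibodies were above the input, and they differed by less than their intervals. These intervals cover counting error only, since PCR copies are not independent molecules and there was 1 input library.

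The farther upstream start lies 618 bp from the nearer one, and its window held the same 19, 17 and 45 fragments. Its depth ratios, 3.76 and 3.97 with Santa Cruz and 2.40 and 3.04 with Abcam, are thus no separate measurement. None of the 17 fragments of Santa Cruz replicate 1 at these starts was also in Abcam replicate 1, so the antibodies gave the enrichment with different fragments.

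Closer to the starts the values parted. Within 250 bp of the nearer upstream start the depth ratio was 7.31 and 6.96 with Santa Cruz and 4.0 and 4.79 with Abcam, from 8 fragments of each antibody and 12 of the input. Within 250 bp of the farther upstream start it was 2.24 and 4.44 with Santa Cruz and 3.29 and 3.6 with Abcam, from 2, 3 and 8 fragments. The signal was higher at the nearer start with both antibodies, on few fragments.

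The fragments were concentrated around the nearer upstream start. Within 500 bp of it lay 15 of the 19 Santa Cruz and 11 of the 17 Abcam fragments, with 15 from the input. There the fragment ratio was 8.75 for Santa Cruz (3.99 to 19.2) and 5.21 for Abcam (2.16 to 12.1). Further upstream, to the end of the window of the farther start, 4 Santa Cruz, 6 Abcam and 29 input fragments gave 1.21 (0.308 to 3.44) and 1.47 (0.499 to 3.6). On the gene side, beyond 500 and up to 2000 bp downstream, there were 0 Santa Cruz, 0 Abcam and 2 input fragments. The GC content of that stretch was 29.7%, against 62.6% within 500 bp of the start.

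**Figure D2:**
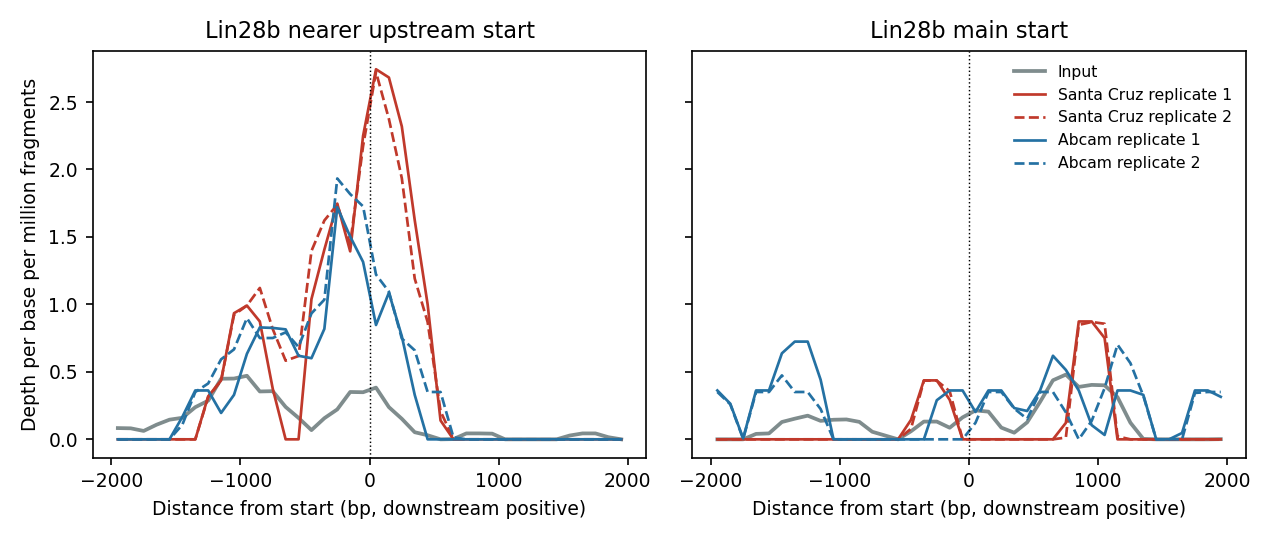
Depth per base, scaled to 1000000 fragments of 300 bp per file, in bins of 100 bp around the nearer upstream (left) and the main start (right) of Lin28b, with 1 line per file. At the upstream start the Santa Cruz lines peak at 2.74 and 2.72 just downstream of the start and the Abcam lines at 1.72 and 1.93 just upstream of it, while the input stays at or under 0.471. At the main start no line passes 0.874.

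The highest points of the antibodies did not coincide. The unscaled depth reached 7 in both Santa Cruz files, 89 and 72 bp downstream of the nearer start, within the first exon of Lin28b-202. With Abcam it reached 5 and 6, at -222 and -210 bp from the start, upstream of it and within the printed sequence. Fragments had been extended to 300 bp, so a summit on so few of them is not placed to the base.

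Along the gene, the fragments of both antibodies were piled up at the upstream starts and at no other bin. From 35 kb upstream of the main start to the end of the gene, joined fragments were counted in bins of 500 bp. Among the 8 bins within 2 kb of the nearer upstream start, the highest held 8 fragments of either antibody, and 1 bin held 4 or more of both. Among the other 250 bins, the highest held 3 Santa Cruz and 4 Abcam fragments, and 0 bins held 4 or more of both. Input fragments reached 14 per bin in either set.

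**Figure D3:**
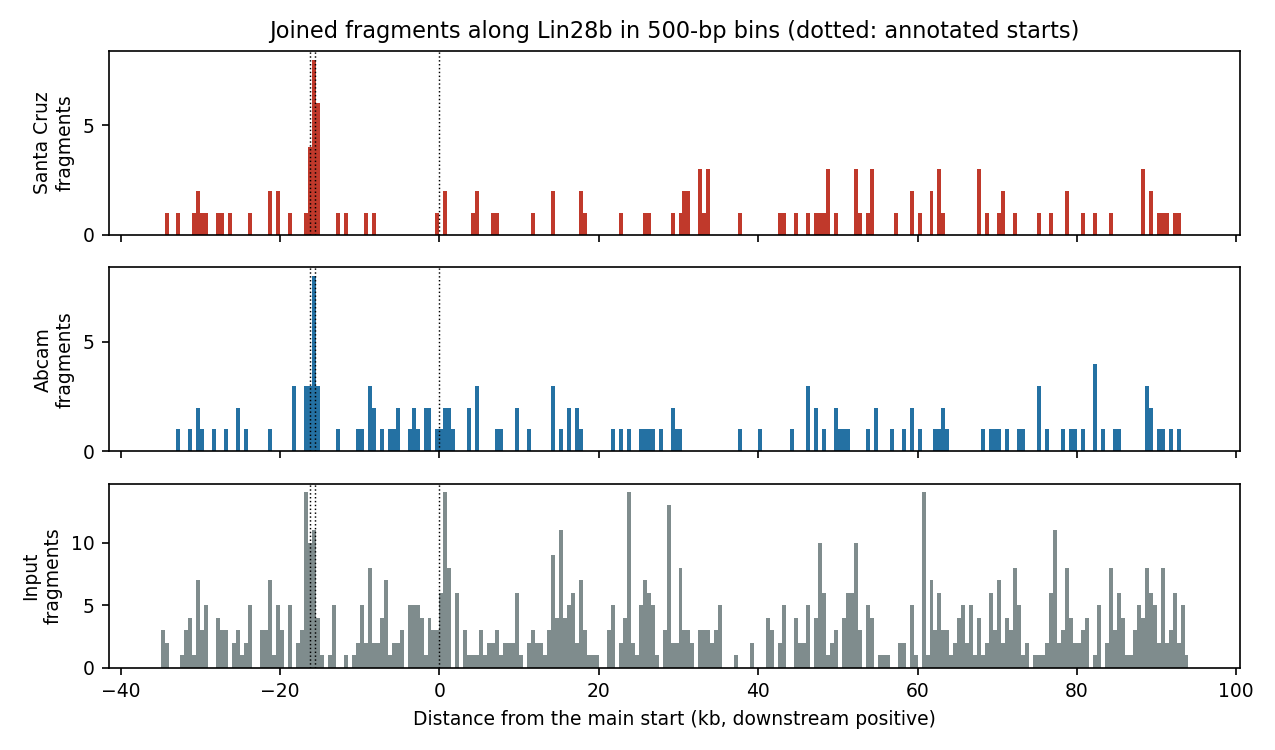
Joined Santa Cruz, Abcam and input fragments per 500 bp bin along Lin28b, by distance from the main start in kb (downstream positive), with dotted lines at the 3 annotated starts. The tallest bars of both antibodies, 8 fragments each, stand at the upstream starts, while the input has bins of up to 14 fragments in several places.

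At the main start of Lin28b the antibodies parted. The depth ratio was 0.747 and 0.743 with Santa Cruz and 1.98 and 1.51 with Abcam, so the Santa Cruz files lay under the input and the Abcam files over it. These rest on 3 Santa Cruz, 11 Abcam and 39 input fragments, with fragment ratios of 0.673 (0.133 to 2.12) and 2.0 (0.925 to 3.99). The mean of the Abcam files, 1.75, was the value nearest under the 2-fold line among the 5 genes, and 2.71 at the nearer upstream start was the nearest above it. The Abcam signal at the main start had no summit at the start, as its highest depth lay at -1420 bp, upstream, in replicate 1 and 1159 bp downstream in replicate 2. Within 1 kb of the main start the Abcam ratio was 0.915.

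Set against the main start, the nearer upstream start was 5.19 times as high with Santa Cruz (5.05 and 5.34 by file) and 1.55 times as high with Abcam (1.21 and 2.0 by file). By joined fragments the ratio was 5.49 for Santa Cruz (1.43 to 30.7) and 1.34 for Abcam (0.517 to 3.57). The upstream start was higher with both antibodies. With Abcam the interval held 1, so a difference between these starts was not detectable with that antibody at this depth. Within 1 kb of the starts the ratio was 6.6 with Santa Cruz and 4.19 with Abcam, and within 10 kb it was 2.78 and 1.09. Both windows were thin in the input, where the median of the 37936 start groups with at least 20 fragments was 73. Of these groups, 13.0% held fewer input fragments than the main start and 18.2% fewer than the upstream ones. Whether the thin input had a part in the ratios was not tested.

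Other genes with a distant alternative start give the range in which Lin28b falls. There were 6551 genes with start groups over 4 kb apart and enough input at both, each represented by its highest alternative start. In 63 of them, or 0.962%, the alternative start was at 2-fold or more with both antibodies and the main start was not. In 44, Lin28b included, the alternative stood over the main start by at least as much as in Lin28b with both antibodies. Taken singly, this contrast was larger in Lin28b than in 98.4% of the genes with Santa Cruz, but than in 74.3% with Abcam. By the level of the alternative start itself, 1 gene of 6551, or 0.0153%, was at least as high as Lin28b with both antibodies, and that gene was Lin28b. With each antibody taken singly, this Lin28b start lay above 99.8% of the start groups with Santa Cruz and 99.3% with Abcam. Lin28b was chosen with earlier ratios from these libraries known, so its rank is a description and carries no test. Of all 37936 start groups, main starts included, 43, or 0.113%, were at least as high as Lin28b at its highest.

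**Figure D4:**
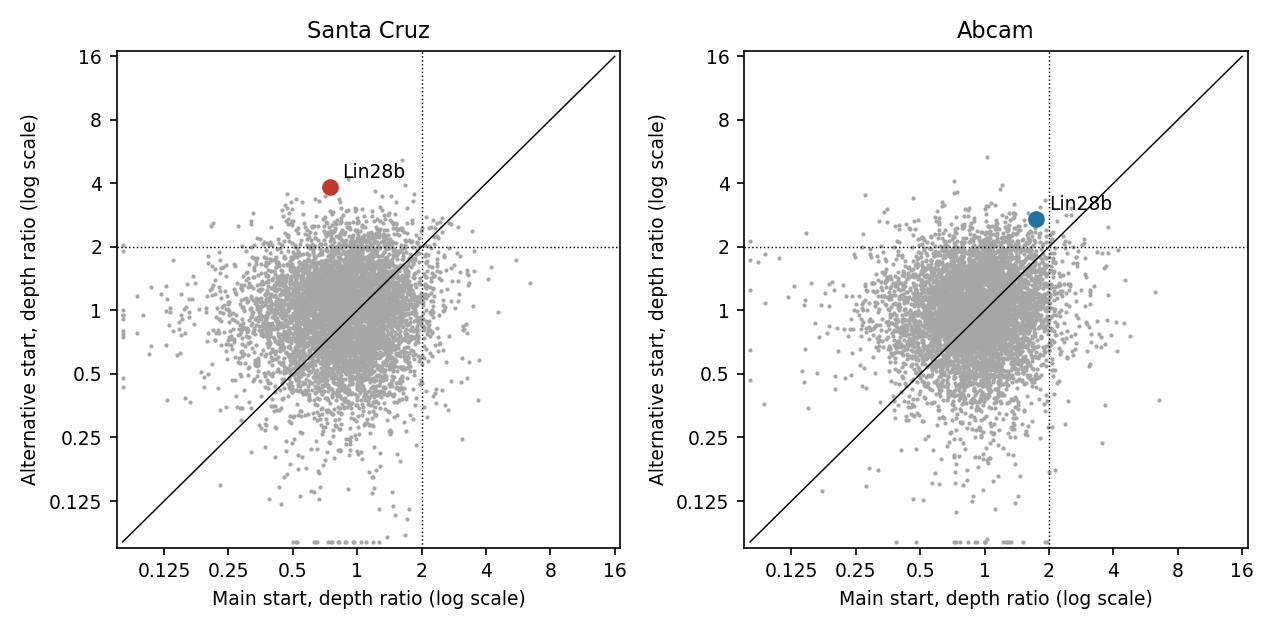
Depth ratio of the highest alternative start against that of the main start for 6551 genes (grey, both axes on a log scale, values outside the axes drawn at their edge), with Lin28b coloured. Lin28b lies above the diagonal with both antibodies, at 0.745 and 3.86 with Santa Cruz and at 1.75 and 2.72 with Abcam.

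The genes most like Lin28b were sought by the Euclidean distance over 4 log2 depth ratios, those of the main and the alternative start with each antibody, among 6515 genes. The nearest were Pdcd6ip, Nasp and 1200016B10Rik, at distances of 0.662, 0.684 and 0.742. Pdcd6ip had 2.94 with Santa Cruz and 2.17 with Abcam at its alternative start and 0.767 and 1.31 at its main start. The alternative starts of these 3 genes rest on 6 to 8 fragments of an antibody and 20 to 25 of the input, fewer than those of Lin28b.

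At Lin28a no enrichment was detectable at this depth. Lin28a (ENSMUSG00000050966.2) has 1 annotated start, at 133574756 on the minus strand of chromosome 4. The depth ratio was 0.572 and 0.665 with Santa Cruz and 1.03 and 1.07 with Abcam, from 7, 14 and 103 fragments in Santa Cruz, Abcam and input. The Santa Cruz files lay under the input and the Abcam files at it, and the fragment ratios of 0.595 (0.233 to 1.27) and 0.965 (0.510 to 1.69) held 1. The noncoding RNA gene Gm13061 lies across this start on the plus strand, and coverage does not tell the strands apart.

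Between the paralogues, the fragment ratio at the upstream Lin28b starts was higher than that at Lin28a with both antibodies. The intervals below belong to each start alone. Their overlap does not measure the difference, for which no interval was computed. With Santa Cruz the interval of the upstream Lin28b starts (2.04 to 6.45) lay above that of Lin28a (0.233 to 1.27), while with Abcam the intervals of 1.44 to 4.78 and 0.510 to 1.69 overlapped.

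Dis3l2, the exonuclease that acts after Lin28a, was near the input. Dis3l2 (ENSMUSG00000053333.8) starts at 88600379 on the plus strand of chromosome 1, where 3 of its 4 transcripts begin, and the other begins at 88600394. At the first of these the depth ratio was 0.789 and 1.05 with Santa Cruz and 1.2 and 1.23 with Abcam, and the second differed from it by less than 0.01 in every file. There were 9 Santa Cruz, 13 Abcam and 76 input fragments, and the fragment ratios of 1.04 (0.457 to 2.07) and 1.21 (0.618 to 2.20) held 1.

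At Trim71 the Abcam files were under the input. Trim71 (ENSMUSG00000079259.1) starts at 114473487 on the minus strand of chromosome 9. The depth ratio was 1.11 in both Santa Cruz files and 0.369 and 0.447 in the Abcam files, from 10, 5 and 98 fragments in Santa Cruz, Abcam and input. The Abcam fragment ratio of 0.362 (0.115 to 0.874) was the lowest of the 7 start groups and its interval stayed under 1, whereas the Santa Cruz ratio of 0.893 (0.415 to 1.71) held 1. Within 1 kb of the start the Abcam depth ratio was 0.149. Santa Cruz depth reached 3 at -573 and -565 bp, upstream of the start, a height that Lin28a also reached.

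Hmga2 was at the level of the input over the whole window and held a local Santa Cruz summit. Hmga2 (ENSMUSG00000056758.8) starts at 119913525 on the minus strand of chromosome 10, and a transcript with a retained intron starts at 119913348. At the first start the depth ratio was 0.890 and 0.886 with Santa Cruz and 1.04 and 1.0 with Abcam, from 10, 15 and 98 fragments, with fragment ratios of 0.893 (0.415 to 1.71) and 1.09 (0.586 to 1.88). At the second it was 0.873 and 0.869 with Santa Cruz and 1.06 and 1.02 with Abcam. None of these differed from the input by more than the counting error. Santa Cruz depth reached 6 in both files, at -890 and -882 bp from the first start and thus upstream of it, next in height to the 7 at Lin28b. In the 100 bp bin centred at -850 bp the scaled Santa Cruz depth was 2.39 in both files, the Abcam depth 0.355 and 0.698 and the input 0.488, so the Abcam files did not share this summit. The input reached its own highest depth, 21, at -719 bp.

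In the order of the Santa Cruz depth ratios, the upstream Lin28b starts (3.87 and 3.86, means of the files) came first, followed by Trim71 (1.11), Dis3l2 (0.918), Hmga2 (0.888), Lin28b at its main start (0.745) and Lin28a (0.618). With Abcam the order after the upstream Lin28b starts (2.72 and 2.71) was Lin28b at its main start (1.75), Dis3l2 (1.21), Lin28a (1.05), Hmga2 (1.02) and Trim71 (0.408). Below the upstream starts the intervals of all neighbours in either order overlapped. The Santa Cruz interval of the upstream starts lay above those of Trim71, Hmga2 and Lin28a but met the upper ends of those of Dis3l2 and the main Lin28b start. With Abcam the interval of the upstream starts lay above that of Trim71 alone. Each of these intervals belongs to its own start, so an overlap does not show that the levels were alike. Only the upstream over the main Lin28b start was given a direct interval. For Santa Cruz it lay above equal levels (1.43 to 30.7), and for Abcam it spanned them (0.517 to 3.57). Direct intervals between the upstream starts and the other genes were not computed. For all 37936 start groups the median depth ratio was 0.860 with Santa Cruz and 0.897 with Abcam, and 5% of them exceeded 1.79 and 1.8.

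The rest of the let-7 pathway was described by the main start of each gene in 3 lists. None of the 16 genes of let-7 processing was at 2-fold or more with both antibodies, while 1.26% of all main start groups were. Their median depth ratio was 0.948 with Santa Cruz and 0.974 with Abcam. The highest was Dicer1, the RNase III enzyme that cuts the precursor, with 2.09 and 1.75 from 20, 17 and 75 fragments. The lowest were the helicase gene Ddx5 with Santa Cruz (0.353) and Hnrnpa1, an RNA-binding protein that acts on let-7 precursors, with Abcam (0.190). At the uridylyltransferases that work with Lin28a, the Santa Cruz and Abcam ratios were 0.606 and 0.980 at Zcchc11 and 1.0 and 1.15 at Zcchc6.

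Among the 18 let-7 targets and partners, again 0 were past 2-fold with both antibodies, beside the 1.26% of all main start groups. The medians were 0.967 with Santa Cruz and 1.06 with Abcam. With Abcam alone, Hmga1 (2.26), the relative of Hmga2, and Cdk6 (2.07), a cell cycle kinase, were past 2-fold. These are 2 of 18 main starts, beside 2.97% of all start groups, main and alternative together. Their Santa Cruz ratios were 1.01 and 1.74, the latter the highest of the list. The Abcam share among main starts alone was not computed, so the 2 shares cover unlike sets. The lowest were Msi2 with Santa Cruz (0.373) and Nras with Abcam (0.226). The alternative starts of these lists, 25 in let-7 processing and 28 among the targets, held 0 groups past 2-fold with both antibodies, beside 0.512% of all alternative start groups.

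Of 15 let-7 and lin-4 family hairpins, 11 were found in the annotation by name, 7 of those had at least 20 input fragments, and 0 of the 7 were past 2-fold with both antibodies, beside 0.888% of all start groups, a share at which so few hairpins show nothing. The medians were 0.865 with Santa Cruz and 1.10 with Abcam. Mirlet7b and Mirlet7c-2, at 85537749 and 85537033 on chromosome 15, have largely overlapping windows and are not separate measurements. Their windows held 90 and 91 input fragments, 8 Santa Cruz fragments each, and 6 and 7 Abcam fragments. The highest were Mirlet7a-1 with Santa Cruz (1.73) and Mir125b-2 with Abcam (1.97), and the lowest Mir125a with Santa Cruz (0.567) and Mirlet7b with Abcam (0.551). Mirlet7d had 2.14 and 2.04, but from 3 Santa Cruz and 4 Abcam fragments over 15 of the input, under the minimum. The other 4 hairpins were not analysed here. The annotated start of a hairpin is that of the precursor, not of its primary transcript.

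**Figure D5:**
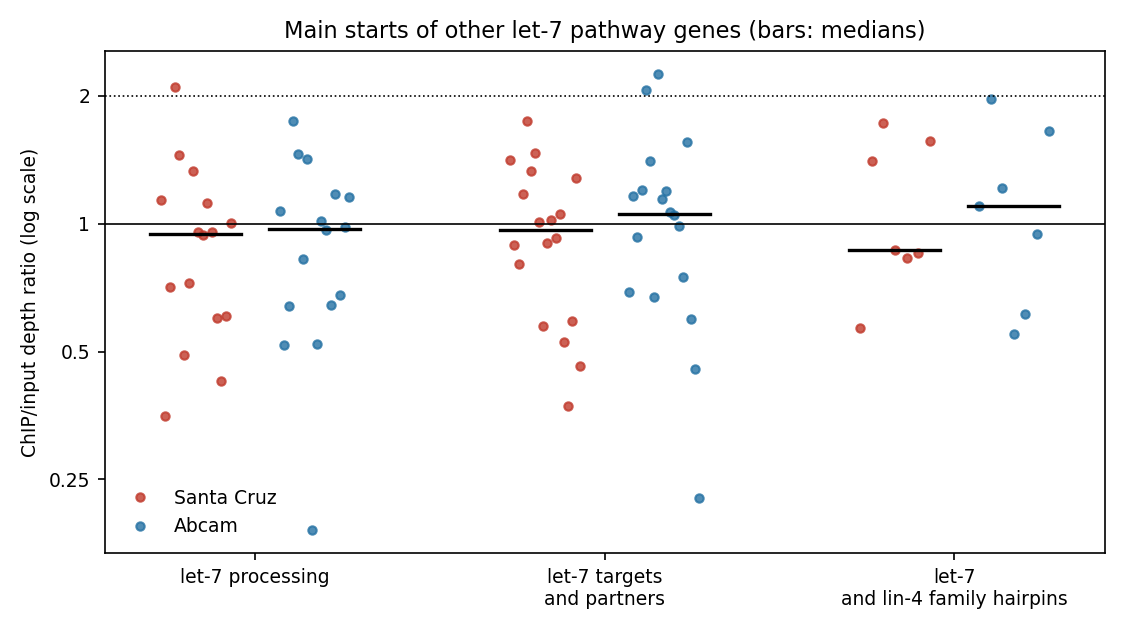
Mean ChIP over input depth ratio (log scale) of each antibody at the main start of 16 genes of let-7 processing, 18 let-7 targets and partners and 7 let-7 and lin-4 family hairpins, with 1 point per gene and bars at the medians. The medians lie between 0.865 and 1.10, and the points above the dotted 2-fold line, Dicer1 with Santa Cruz and Hmga1 and Cdk6 with Abcam, are above it with that antibody alone.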

How the data were processed

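CCE cells were profiled by ChIP-seq with 2 Pcgf6 antibodies and an input. The files deposited by the authors hold coverage (unit: signal), that is, how many reads, each lengthened to 300 bp, cover a base of mm9. There is 1 file per library, unscaled and not divided by the input. The submitters' processing notes list Bowtie (given as 0.1.2.7) and mm9, and the mapping filter and the treatment of duplicate reads are not given in the sources used here.

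Runs 1 base long were absent from the files and the next run opened 1 base early, which was corrected. Fragments were recovered from rises and falls of the depth 300 bp apart. At most 0.0472% of the changes in a library were left unmatched. The 2 files of an antibody were joined, and 1 fragment was kept per position. Starts came from GENCODE M1 (NCBIM37), and those within 500 bp were joined at the one shared by most transcripts. The main start was the one shared by most protein-coding transcripts. Depth ratios in windows of 2 kb on each side were averaged over the 2 files of an antibody. Intervals of ratios to the input and between antibodies are exact Clopper-Pearson (95%). Those of an upstream over the main Lin28b start are exact conditional intervals (95%) of the odds ratio. A start group was counted as past the line at 2-fold with both antibodies, with at least 20 input fragments. No tests were run, since each antibody was 1 sample.

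The genes and the pathway lists were chosen with earlier results of these data known. Named were the 5 genes, the highest, the lowest and those past 2-fold in each list, and the 3 genes nearest to Lin28b. Zcchc11, Zcchc6 and Mirlet7d were named after their values were seen. RefSeq promoter sequences were matched to NCBIM37 to place the RefSeq starts. Alternatives were other windows, scalings, folds, input minimums and start groups, joined fragments, and leaving out each file. Intervals were computed with scipy 1.17.1, figures drawn with matplotlib 3.10.9, and tables handled in Python 3.11.15 with pandas 2.3.3, numba 0.67.0 and numpy 2.4.6, and fragment recovery was tested on simulated data.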

Additional observations from a re-analysis of the deposited data

Results flagged for a closer look

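At 4 main starts the depth in both files of one antibody lay over the input and that in both files of the other under it. The Abcam depth ratio was 2.34 times the Santa Cruz ratio at Lin28b, 1.70 times at Lin28a and 1.15 times at Hmga2, and 0.367 times at Trim71. The difference was not tested. By joined fragments the same quotients had intervals of 0.786 to 16.6 at Lin28b, 0.613 to 4.75 at Lin28a, 0.511 to 3.03 at Hmga2 and 0.109 to 1.3 at Trim71, all of which held 1. The direction against the input turned in part: by joined fragments Abcam at Lin28a (0.965) and Santa Cruz at Trim71 (0.893) lay under the input, and at Hmga2 the depth ratio of Abcam replicate 2 was 1.0. At the upstream starts of Lin28b the quotient by depth was 0.70 and both antibodies lay over the input. The flag takes the input level as its reference, but the median start group lay under it, at 0.860 with Santa Cruz and 0.897 with Abcam. Against these medians Hmga2 was higher with both antibodies, above 52.9% and 61.9% of start groups. The main starts of Lin28a, Lin28b and Trim71 still lay on opposite sides of them.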

How the results depend on the processing

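No paired analysis was possible because the values come from no test and the replicates of an antibody hold mostly the same fragments. No value past 2-fold turned to under the input in any alternative run, and none of the 72 recomputed values of Lin28a, Trim71, Dis3l2 and Hmga2 moved by more than the counting error (Trim71 with Abcam lay between 0.149 and 0.666). With windows of 1 kb the Abcam ratio at the main Lin28b start was 0.915, the Abcam ratio of the nearer upstream over the main start was 4.19, and 1.81% of all start groups were past 2-fold with both antibodies. With windows of 10 kb the nearer upstream over the main start was 2.78 with Santa Cruz and 1.09 with Abcam, and the number of start groups of the 5 genes past the line fell from 2 to 0, since the nearer and the farther upstream Lin28b start had 2.06 and 2.06 with Santa Cruz but 1.97 and 1.90 with Abcam, and the share of all start groups was 0.132%. A line at 3-fold left 0 of the 2 and 0.198% of all, and a line at 1.5-fold gave 3.33% of all. Joining starts within 2 kb made the upstream pair 1 group. Without an input minimum 1.92% of all start groups were past the line. Leaving out each file gave 1.21 to 2.0 for the nearer upstream over the main start with Abcam, 5.05 to 5.34 with Santa Cruz, and 2.39 to 3.03 and 3.77 to 3.97 for the upstream start over input. Scaling by the median over windows of 10 kb raised all ratios slightly (medians from 0.949 to 0.958). The ratios rest on 3 to 19 fragments of an antibody per window, so differences under about the width of the intervals were not detectable.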

Other observations

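Base composition and motifs were set against the share of all start groups past 2-fold with both antibodies, as a description without a test. At 75% GC or more, where the upstream Lin28b starts lie, 21 of 1230 start groups, or 1.71%, were past the line, the medians were 0.900 with Santa Cruz and 0.941 with Abcam, and the median input was 86 fragments against 45 at those Lin28b starts. Under 45% GC, where the main Lin28b start lies, 91 of 8213, or 1.11%, were past it, with a median input of 45 fragments. The share was 0.536% from 45% to 60% GC and 1.37% from 60% to 75%, so it did not rise steadily with GC. Start groups that hold CACGTG were past the line in 57 of 2419 cases, or 2.36%, against 0.788% of those without it. For GCGGGA the shares were 1.32% and 0.797%, and for AGGTGTGA 1.16% and 0.885%.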
